A study of Sus scrofa with 2 samples.

Results

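Among the Unigenes of young pig ovaries, 1638 features numbered 73610 to 127855 had fewer reads at 90 days after birth than at 30 days, while most of their number range went the other way. A Unigene is a transcript sequence put together from overlapping sequencing reads, and it can be a whole RNA or a piece of one. The features were chosen by measured values: a length below 5000 bases, a mean over the ages below 50 CPM (the share of a library's reads in counts per 1e6 reads), at least 1 CPM at one age, and log2((CPM at 90 days + 1)/(CPM at 30 days + 1)) of at most -1, a fall of at least 2-fold on this scale. Of 88173 features in all, 40004 were Unigenes of this number range. The limits on length and mean level left 39410, and 33217 of these reached 1 CPM. The 1638 lower features were 4.93% of those 33217, a share that the rule itself fixes, against 10247 features that were at least 2-fold higher and 21332 between. Over all 73973 features of the series with at least 1 CPM, 36.6% were at least 2-fold lower at 90 days. In the range of Unigene numbers that comes just before this one, called the preceding range here, 63.9% were under the same limits.

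The animals were gilts, young female pigs, from a cross of the Landrace and Yorkshire breeds, kept alike and fed freely. The tissue was the ovary at 30 or at 90 days after birth, with no treatment named for either age. Equal amounts of RNA from the animals of an age were combined and 1 library was made from each pool. The study used 6 animals, and neither the labels nor the files say how many went into a pool. One read of the 30-day library was worth 0.107 CPM and one of the 90-day library 0.0934 CPM. With 1 pool per age the spread between animals cannot be seen: every difference below describes these pools, has no replicate check and carries no p-value. Intervals cover counting error only, since copies of 1 molecule cannot be told from separate molecules in these reads. In a whole organ, fewer cells of a type and less RNA per cell cannot be told apart.

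Long non-coding RNAs are transcripts that are not translated into protein, and many of them are present at low levels and in a restricted set of tissues. In the ovary after birth, resting primordial follicles are recruited into growth, granulosa cells multiply around the oocyte and theca cells form the outer layer that makes steroid precursors. The deposited files pair no identifier with a gene name, and 0 of the 1638 features were found in the gene name tables, so neither the genes, their positions nor their coding status were used here, and ovarian markers could not be checked. Identifiers are printed for the 2 features with the lowest log2 fold, and the others are described by length.

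The features differed from the rest of their range at 30 days, and had much the same level per length as the rest at 90 days. In RPKM, CPM divided by the feature's length in kilobases, their median was 14.9 at 30 days and 3.64 at 90 days. The 31579 compared features of the range that were not lower had medians of 1.48 and 3.47. The middle 80% of the lower features lay between 7.13 and 32.3 RPKM at 30 days, and between 2.01 and 7.23 at 90 days. The corresponding limits for the others were 0.266 to 6.69 at 30 days and 1.72 to 8.50 at 90 days. These middle ranges did not overlap at 30 days and nearly coincided at 90 days. The rule used both levels, so this is a description of what it picked.

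**Figure D1:**
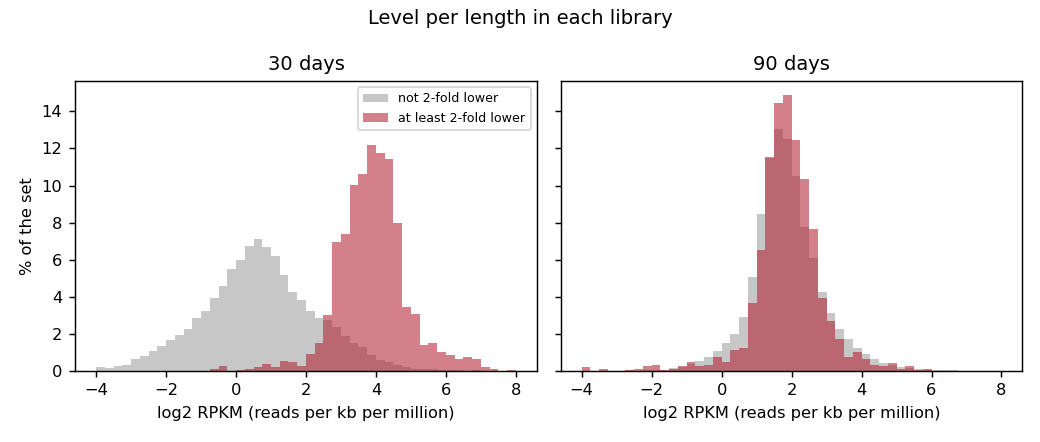
Histograms of log2 RPKM (horizontal axis) at 30 and 90 days as a percent of each set (vertical axis), for the 1638 lower features (red) and the 31579 other compared features of the range (grey). Features with no read at an age are left out of that panel and values beyond the axis are put in its end bins; the red set lies to the right of the grey at 30 days (medians 14.9 and 1.48 RPKM) and over it at 90 days (3.64 and 3.47 RPKM).

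In reads, the median lower feature had 126 at 30 days, with a range from 12 to 842, and 34 at 90 days, with a range from 0 to 302. As CPM these medians were 13.4 and 3.18. At 30 days 1050 of the 1638 features were at 10 CPM or more, and 180 were at 90 days. Most were therefore well above the 1 CPM limit at 30 days, and 61 fell below 1 CPM at 90 days. Together the features held 292979 reads at 30 days, 3.12% of the library (exact 95% interval 3.11 to 3.14), and 85197 reads at 90 days, 0.796% (0.790 to 0.801). Of the reads of all 33217 compared features of the range, they took 28.1% at 30 days and 5.91% at 90 days.

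Most of the falls were moderate. The median log2 fold was -1.57, and the plain CPM ratio (30 over 90 days) of the 1635 features with a read at 90 days had quartiles of 2.85 and 5.14 around a median of 3.65. On the log2 scale with the added 1 CPM, 424 features were at least 4-fold lower, 60 at least 8-fold and 4 at least 16-fold. For comparison, the median log2 fold of the features that were not lower was 0.72. The exact 95% interval of the CPM ratio lay wholly past 2-fold for 1135 of the 1638 features. It lay wholly on the lower side of no difference for all 1638. The rule picked the features by these same reads, and the intervals say nothing on the spread between animals.

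**Figure D2:**
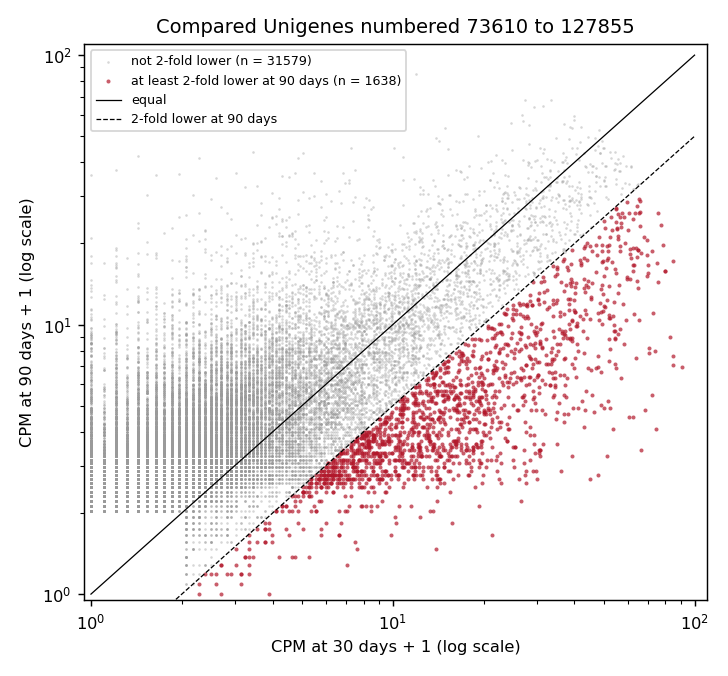
Each point is 1 compared Unigene numbered 73610 to 127855, with CPM + 1 at 30 days on the horizontal and at 90 days on the vertical axis, both on log scales. The 1638 lower features (red) lie under the dashed 2-fold line, and the grey points, which are not 2-fold lower, crowd on the other side, with 10247 of them at least 2-fold higher.

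The lowest log2 fold, -4.27, belonged to Unigene99488_All, of 1380 bases, with 612 reads in the younger pool and 26 in the older. This was 65.3 against 2.43 CPM, a 26.9-fold difference (exact 95% interval 18.2 to 41.5). Coverage was 99.6% of its length in the younger pool and 96.3% in the older, so the feature was seen over nearly all its length in both pools. The next, Unigene76279_All, of 710 bases, had 691 and 33 reads, or 73.7 and 3.08 CPM, a 23.9-fold difference (16.9 to 35.0). Coverage was 99.9% and 93.0%.

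The most abundant of the lower features at 30 days had large falls, which the rule fixes in part: with a mean below 50 CPM, a feature this high at 30 days must be low at 90 days. A feature of 722 bases fell from 842 reads to 64, a 15.0-fold difference (11.6 to 19.7). Features of 922 and 1091 bases had 784 and 785 reads at 30 days against 65 and 71 at 90 days, 13.8-fold (10.7 to 18.0) and 12.6-fold (9.89 to 16.3). A feature of 1902 bases went from 770 to 86 reads, a log2 fold of -3.20. The feature of 1278 bases, equally abundant at 30 days with 785 reads, kept 174 at 90 days and was 5.15-fold lower (4.37 to 6.11). Those 5 had between 82.1 and 89.8 CPM at 30 days.

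The features that stayed most abundant at 90 days were near the 2-fold limit, again as the limit on the mean requires. They measured 680, 4494 and 1998 bases and had 302, 298 and 295 reads at 90 days against 604, 608 and 550 at 30 days. Their CPM at 30 days was 2.28-fold (1.99 to 2.63), 2.33-fold (2.02 to 2.68) and 2.13-fold (1.84 to 2.46) that at 90 days. The second of these was also the second longest of the lower features, after one of 4758 bases with 630 and 215 reads, which was 3.35-fold lower (2.86 to 3.92). At the other end of the lengths, features of 203 and 205 bases had 54 and 46 reads at 30 days and 21 and 19 at 90 days. The first was 2.94-fold lower (1.74 to 5.12) and the second 2.76-fold, with a wider interval.

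Complete absence at 90 days was rare: 3 of the 1638 features had no read there. They were 1019, 1075 and 573 bases long, with 27, 16 and 12 reads at 30 days over 33.6%, 18.1% and 36.0% of their length. A count of 0 allows up to 3 reads, 0.280 CPM, in the 90-day library. Against that floor they were at least 10.3-fold, 6.09-fold and 4.57-fold lower at 90 days, bounds that take the 30-day reads as exact and hold for 1 feature taken alone. At the threshold, 2 features of 361 and 1334 bases with 62 and 30 reads each, and one of 709 bases with 55 and 26, fell just inside. Just outside, features of 1149 and 744 bases had 123 and 65 reads each, and one of 3126 bases had 340 and 189. The values on either side of the limit are alike, so it marks no gap in the data.

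The share of lower features rose with abundance from a mean of 1 CPM upwards. It was 0.310% of 3228 features below a mean of 1 CPM, 0.223% of 13032 features at a mean of 1 to 2 CPM, 3.11% of 11344 at 2 to 5 CPM and 16.8% of 3375 at 5 to 10 CPM. It reached 27.6% of 1465 at 10 to 20 CPM (exact 95% interval 25.3 to 29.9) and 35.6% of 773 at 20 to 50 CPM (32.2 to 39.1). At 10 to 20 CPM 404 features were lower and 191 higher, and at 20 to 50 CPM 275 were lower and 43 higher. With this scaling the usual direction of the range was thus turned in both groups. The turn depended on scaling: at a mean of at least 5 CPM, 1246 features were lower and 1001 higher. With the median log2 ratio of the libraries put at 0, these were 1064 and 1238. Higher features also outnumbered lower ones there under each of the other scalings described below. Per length the picture was similar up to a point: the share was 1.03% at a mean of 2 to 5 RPKM, 14.9% at 5 to 10, 31.4% at 10 to 20 and 25.1% at 20 RPKM and over. The mean includes both ages and so shares its values with the rule.

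In length the lower features had a median of 940 bases, with the middle 80% between 452 and 2111, against a median of 803 for the others. Among features with a mean of 5 to 10 RPKM, the share that was lower was 3.64% below 500 bases, 22.6% at 500 to 1000 bases and 24.4% at 1000 to 2000 bases. It was 16.1% at 2000 to 3000 bases and 12.3% at 3000 to 5000 bases. At equal CPM, and so at a like number of reads, the order was another. With a mean of 5 to 10 CPM the share was 17.1% below 500 bases, 35.5% at 500 to 1000 bases, 11.6% at 1000 to 2000, 1.02% at 2000 to 3000 and 1.75% at 3000 to 5000 bases. How the share followed length thus depended on whether features were matched per length or by reads.

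The lower features were not scattered along the Unigene numbers but stood in groups. Sorted by number among the compared features, a lower feature was followed directly by another lower one in 838 of 1638 cases, 51.2%, while 4.93% of all compared features were lower. The share was 45.2% at 2 places on, 33.2% at 10 places, 13.1% at 50 places, 8.21% at 100 places and 3.95% at 500 places. It came down to the overall share by the longest distances counted. Because abundant features are more often lower, the same was counted among the 5613 compared features with a mean of at least 5 CPM, where 22.2% were lower. There a lower feature was followed by another in 64.6% of cases at 1 place, 46.3% at 10 places and 21.1% at 100 places. Features that were at least 2-fold higher followed each other in 48.5% of cases, with an overall share of 30.8%. Neither the labels nor the files state what the order of the Unigene numbers stands for. Neighbouring numbers may be pieces of 1 RNA or share reads, so the members of a group are not independent measurements.

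**Figure D3:**
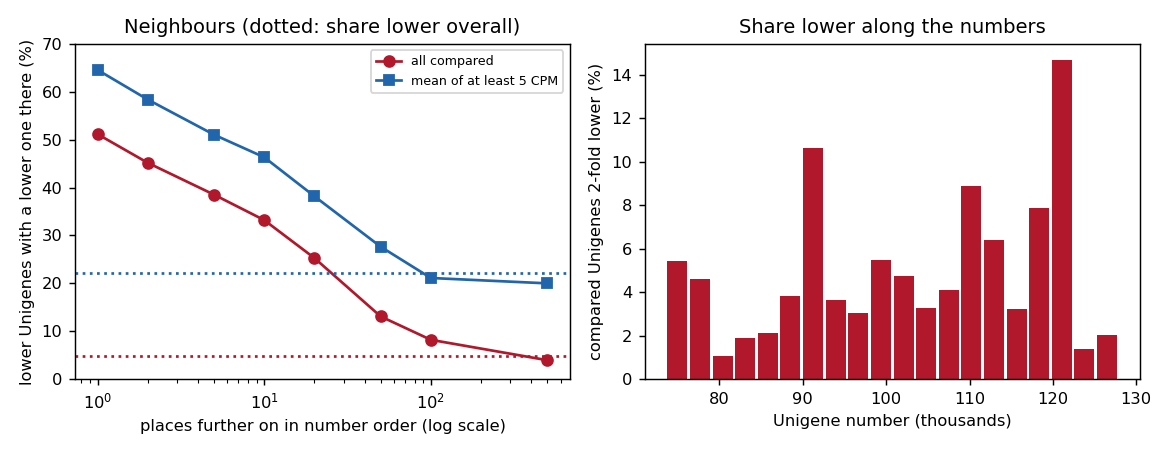
Left, the percent of lower Unigenes with another lower one a given number of places further on (log scale), for all compared features (red) and those with a mean of at least 5 CPM (blue), with the overall share of lower features as a dotted line of the same colour; right, the percent of compared features that were lower in 20 equal stretches of Unigene numbers. At 1 place the shares are 51.2% and 64.6%, and along the numbers the percent lower runs from 1.09% to 14.7%.

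Along the range the share of lower features was uneven. In 20 equal stretches of numbers it ran from 1.09%, between 79035 and 81746, to 14.7%, between 119719 and 122430. The stretch from 89884 to 92595 had 10.6% and that from 108870 to 111581 had 8.88%. At a mean of at least 5 CPM the same 4 stretches gave 4.62%, 50.3%, 44.8% and 36.8%. Higher features made up between 25.1% and 38.6% of every stretch, so higher features were present throughout.

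Unbroken runs held most of the lower features. There were 557 with no lower feature directly beside them, and 243 runs of 2 or more held the other 1081, 66.0% of the total. Runs of 10 or more numbered 23 and held 381 features. The longest had 52 features in a row between numbers 111047 and 111106, whose 12752 reads of the younger pool compared with 3703 of the older, a 3.93-fold fall in CPM for their sum (3.79 to 4.08). Within it the log2 folds ran from -2.81 to -1.04 around a median of -1.83, and the RPKM from 6.82 to 28.7 at 30 days and from 1.94 to 7.97 at 90 days. The next longest had 30 features between 120077 and 120112 and fell 4.67-fold in sum (4.42 to 4.93), from 6472 to 1584 reads.

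Linking lower features whose numbers lay at most 10 apart gave 27 blocks of at least 10 lower features, with 747 of the 1638, 45.6%. Between the first and last numbers of these blocks lay 947 compared features, of which 78.9% were lower and 19 were higher. The sums of their lower features fell between 2.62-fold and 7.03-fold, with a median of 3.95-fold. In 25 of the 27 blocks most compared features were lower, and for that reason alone the median over all of them was past 2-fold. The blocks were built from the lower features, so a high share inside them follows in part from how they were drawn.

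The largest block ran from 111016 to 111126 and held 88 lower features among 92 compared, none higher, with 20433 reads at 30 days and 5990 at 90 days. In the 100 numbers before it, 1 of 74 compared features was lower and 32 were at least 2-fold higher, and the median log2 fold was 0.85. In the 100 numbers after it, 6 of 39 were lower and 6 higher. The median over all compared features inside the block was -1.77. A second block, from 120062 to 120159, held 74 lower features among 79 with a median of -1.99, and its edge was not as sharp: 20 of the 28 compared features in the 100 numbers before it were lower as well. After it, 2 of 47 were lower.

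**Figure D4:**
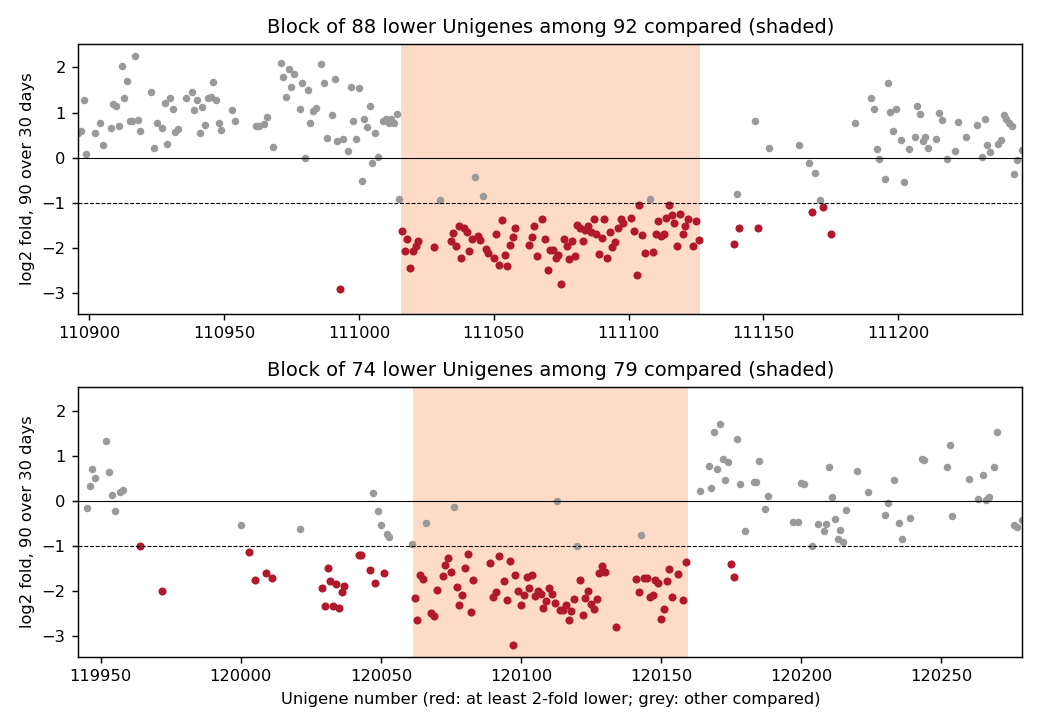
Log2 fold, 90 over 30 days with 1 CPM added (vertical axis), against Unigene number (horizontal axis) for the compared features in and around the 2 largest blocks (shaded); red points are at least 2-fold lower and grey points are the others, with lines at 0 and at the 2-fold limit. Inside the shading 88 of 92 and 74 of 79 features are red, and the features before the first block lie mostly above 0, with a median of 0.85.

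The next blocks by size were of the same kind. Between 92340 and 92451, 66 of 79 compared features were lower and 2 higher. Between 73885 and 73978 the counts were 63 of 77 with 7 higher, and between 117026 and 117118 they were 43 of 45 with none higher. In sum the lower features of these 3 blocks fell 4.40-fold, 4.32-fold and 5.46-fold. The block with the highest median level per length at 30 days lay between 103985 and 104038. There 22 of 29 compared features were lower and 4 were higher. Its lower features had medians of 36.1 RPKM at 30 days and 5.16 RPKM at 90 days and a 6.15-fold fall in sum. At 30 days the median of the 5 largest blocks was between 16.4 and 19.6 RPKM, and at 90 days between 3.08 and 4.57.

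Surroundings differed between the 2 features with the lowest folds. In the 20 numbers before Unigene99488_All, 10 of 11 compared features were lower, and the median log2 fold there was -1.90. In the 20 numbers after it, 2 of 14 were lower and 10 higher, with a median of 1.19, so it stood near the end of a block. Unigene76279_All had 2 lower features among 14 before it and none among 11 after it, where the folds lay between -0.62 and 1.20.

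Features of large blocks were longer and somewhat more abundant than lone ones. The 747 in blocks of at least 10 had a median length of 1056 bases and medians of 16.6 CPM at 30 days and 3.83 CPM at 90 days. The 310 with no other lower feature within 10 numbers had a median length of 854 bases and medians of 11.5 and 2.71 CPM. Per length the sets lay closer together, at 16.1 and 14.8 RPKM at 30 days and 3.74 and 3.79 RPKM at 90 days. A fall of at least 4-fold was found in 30.7% of the former and 21.3% of the latter. Within the 64 runs of 5 or more, the SD of the log2 fold was 0.42, against 0.49 over the same 637 features without regard to runs. For the log2 RPKM at 30 days these SDs were 0.53 and 0.68.

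Features that were not lower themselves, but stood directly beside a lower one, also had lower folds than the rest of the range. The median log2 fold of these 1455 was 0.20, against 0.74 for the other 30124. At a mean of 5 to 10 CPM it was -0.43 in 198 beside a lower feature and 0.39 in 2610 others. At 2 to 5 CPM it was -0.09 in 536 and 0.64 in 10455. Of the 1455, 43.1% had a log2 fold below 0, compared with 14.4% of the others, and 16.2% against 33.2% were at least 2-fold higher.

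The percent of a feature's length that reads covered was not part of the rule, although it follows read number and length, which were. It was high for most lower features at both ages. The median was 97.6% at 30 days and 91.9% at 90 days, and 934 of the 1638 were covered over at least 90% of their length in both pools. In 301 features the coverage was broader at 90 days, in spite of the lower CPM. The features were therefore still seen along most of their length when their level was lower. The compared features of the range that were not lower had medians of 58.2% at 30 days and 90.2% at 90 days. Broad coverage at 90 days was thus usual in the range.

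To take read number and length out in part, the covered percent was divided by that expected if reads of 90 bases, the length that features with 1 read showed, fell at random. The median of this quotient for the lower features was 0.977 at 30 days and 0.958 at 90 days. Compared features of the range that were not lower gave 0.883 and 0.947. Among features with 20 to 100 reads at 30 days it was 0.954 in 616 lower features and 0.894 in 8066 others. With 20 to 100 reads at 90 days the quotient was 0.961 in 1137 and 0.950 in 21941. At the same mean read depth of 5 to 10 at 30 days, the median covered percent was 95.8% in 484 lower features and 94.5% in 2573 others, and the quartile ranges, 92.1% to 97.9% and 89.9% to 97.4%, overlapped. At a depth of 2 to 5 the order was the other way, with 79.1% in 71 lower features and 83.2% in 6405 others. At 90 days the lower features were covered over 79.3% at a depth of 1 to 2, against 61.1% in the others, and over 91.4% against 89.9% at 2 to 5. At 5 to 10 the medians were 96.21% and 96.17%. Once depth was matched, the order of the sets thus differed between depths and ages.

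The Unigenes of the preceding range that were lower at 90 days, 25012 under the same limits, had another profile. Their median log2 fold with the added 1 CPM was -1.60 against -1.57. The added 1 CPM weighs more at low levels, and the plain fall between the medians was larger in that range. There the median CPM went from 3.31 to 0.374, against 13.4 to 3.18 for the features here. Per length, the medians of the 25012 were 4.01 RPKM at 30 days and 0.392 RPKM at 90 days. The 1638 features here were thus higher than those at both ages, 14.9 and 3.64 RPKM. At 90 days the median covered percent of the 25012 was 25.2%, against 91.9%, at medians of 4 and 34 reads. With 20 to 100 reads at 90 days, the quotient of observed and expected coverage was 0.816 in 2097 of them and 0.961 in 1137 of the features here. At 30 days and 20 to 100 reads it was 0.965 in 18807 and 0.954 in 616. With 20 to 100 reads the sets thus differed in evenness of coverage mainly at 90 days. At a depth of 2 to 5 they also differed at 30 days, in the other direction. There the median covered percent was 79.1% in 71 of the features here and 90.9% in 15424 of the preceding range. At a depth of 5 to 10 at 30 days it was 95.8% and 96.7%. Each set comes from 1 pool per age, so these differences have no replicate check.

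**Figure D5:**
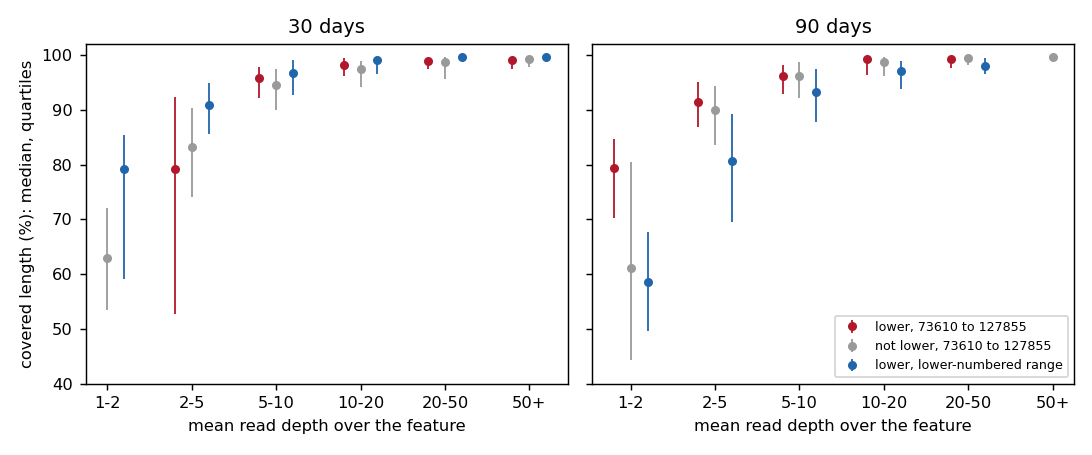
Covered length in percent (vertical axis; points are medians and bars quartiles over features) by mean read depth over the feature (horizontal axis, reads times 90 bases over length) at 30 and 90 days, for the lower features (red), the other compared features of the range (grey) and the lower Unigenes of the preceding, lower-numbered range (blue); groups under 20 features are not drawn. At a depth of 2 to 5 at 90 days the medians are 91.4%, 89.9% and 80.7%.

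A small set was thinly and unevenly covered. In 43 of the 1638 features reads lay on under 50% of the length at 30 days, and 40 of these were also under 50% at 90 days. Their median length was 1456 bases, with medians of 29 reads at 30 days and 7 at 90 days and a median log2 fold of -1.28. The least covered, chosen after its values were seen, had 2943 bases with 17 reads on 8.66% of them at 30 days and 2 reads at 90 days, a 9.71-fold difference with an interval from 2.30 to 86.6. Not all of the 43 had few reads: 6 had at least 100 at 30 days, and the most was 561.

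The numbers of lower and of higher features depended on how the libraries were scaled. The 5 other scalings that were run raise every log2 ratio (90 over 30 days) by 0.19 to 0.53. Of the 1638 features, 1345 remained past 2-fold when the median log2 ratio of the libraries was put at 0. With TMM factors 1106 remained, with upper-quartile rescaling 1036, and with median-of-ratios factors 1082. With a library total that leaves out the 4 most abundant features, 1113 did, and 922 of these still met the limits on CPM. With the scalings named before it, these limits removed none of the features that remained past 2-fold. Shifts of this size cannot turn the direction of features chosen at a log2 fold of -1 or less. Features of the range that were at least 2-fold higher numbered 11951, 14776, 15705 and 15197 with these 4 scalings in the same order and 22831 with the last, against 10247. Grouping along the numbers was present under each as well: between 41.9% and 49.7% of the features then called lower were followed by another, against overall shares of 2.70% to 4.07%.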

How the data were processed

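Each table gives, per the file headers, a count of uniquely assigned reads per feature, a length, a covered percent of that length and RPKM. The deposited counts summed to the header totals of 9376506 (30 days) and 10706106 (90 days), and the deposited RPKM equalled the count per kilobase and per 1e6 reads of that total within a relative tolerance of 1e-06. The build Sscrofa10.2, TopHat and Cufflinks appear per the submitters' processing notes with neither version nor role. For the counting tool, the strand setting and the assembly and numbering of the Unigenes, details were not given in the sources used here, so shared or antisense reads could not be assessed. Sequences of the features were not used here.

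Counts were divided by the header total to give CPM, and a feature missing from a table was given 0 reads. Intervals are exact (Clopper-Pearson, 95%) on the share of reads at 90 days, and 3 reads stand for the limit of a count of 0. With 1 library per age no test was run. The preceding range holds the Unigenes numbered 12191 to 73609. The members and lists were chosen with earlier results of these data known. Named features are the 2 lowest log2 folds, and described ones the extremes of level, length and threshold. Runs, blocks, neighbours and depth groups were chosen after seeing the data. The rule and intervals were tested on simulated data. Python 3.11.15, pandas 2.3.3, scipy 1.17.1 and edgeR 4.0.16 (scaling factors only) were used.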

Additional observations from a re-analysis of the deposited data

How the results depend on the processing

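No paired analysis was possible because the ages are single pools, and no library could be left out for the same reason. Against 1638 lower features, 4.93% of those compared and a median log2 fold of -1.57, a pseudocount of 0.1 CPM gave 6.41% and -1.62, and 0.5 CPM gave 5.66%. No filter on CPM gave 4.16%, since more features were compared, and a minimum of 5 CPM 18.7% and -1.63, since fewer were. A 4-fold threshold gave 424 features, 1.28% and -2.37. With the median log2 ratio set to 0 the share was 4.07%. Upper-quartile rescaling gave 1043 features, 3.11% and -1.50, TMM factors 3.31% and -1.52, and median-of-ratios factors 1087, 3.24% and -1.52. Leaving the 4 most abundant features out of the total gave 971, 2.70% and -1.49, and this also raised every CPM against the fixed pseudocount and limits. The observed over expected coverage of 0.977 at 30 days was 0.954 with 20 to 100 reads only. The share of 51.2% followed by a lower feature was 55.6% where the next number had to be exactly 1 higher, 64.6% at a mean of at least 5 CPM, 38.2% without runs of 10 or more, and 49.6% without the longest run, these last 3 chosen after seeing the data. Linking at 5 or 20 numbers in place of 10 gave 28 and 25 blocks of at least 10, with 621 and 803 lower features against 747. Over all alternatives for results on the whole set, apart from the linking, 25 values moved beyond 1.5 times the count or beyond the exact interval of the share or median, and 11 did not. Depth limits single features most below 5 CPM, where 3 reads at 90 days are 0.280 CPM.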
